A study of Homo sapiens with 148 samples.

Results

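The HOX cluster genes encode the homeodomain transcription factors that lie in 4 clusters, HOXA to HOXD. They were taken from the table of stage mean expression as every gene name made of HOX, a cluster letter and a paralogue number, with antisense transcripts left out. This gave 36 genes of the 49085 gene names in the table, with 11 in HOXA, 10 in HOXB, 6 in HOXC and 9 in HOXD, and each had 1 entry. HOXC10, HOXC11 and HOXC12 were not analysed here. In the GENCODE v44 annotation of GRCh38 the HOXA members lie on chromosome 7 and the HOXB members span chr17:48528526-48728750, both on the minus strand. The HOXC members span chr12:53938831-54056030 and the HOXD members chr2:176092721-176190907, both on the plus strand.

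Genes with the same paralogue number in different clusters are descended from one ancestral gene. In the embryo, low-numbered genes at the 3′ end of each cluster are switched on early and in anterior tissue such as the hindbrain, and high-numbered genes at the 5′ end later and more posteriorly, a rule called collinearity. Retinoic acid and WNT signals open the clusters from the 3′ end, Polycomb proteins keep them silent in pluripotent cells, and the proteins bind DNA together with TALE homeodomain partners of the PBX and MEIS families.

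RNA-seq was performed on H9 human embryonic stem cells (hESCs, an established pluripotent line), and on spheroids of these cells taken through a stepwise pancreatic differentiation. Definitive endoderm (DE) was collected at day 4 after activin A with CHIR99021, which activates WNT signalling, and primitive gut tube-like cells (PGT) at day 7 after the growth factor KGF. Retinoic acid, with the hedgehog inhibitor SANT1, was first given on day 7 and retinoic acid last on day 20, so pancreatic progenitors (PP, day 14) had received it, while SC-β organoids (day 35) had spent the days since without it. PGT was also collected on day 7, and whether before or after that change of medium is not stated. The progenitor medium also held KGF and Y27632, with PdBU and LDN193189 at its start only. The dose of retinoic acid was lowered in steps over its course. From day 14 the γ-secretase inhibitor XXI, betacellulin, T3 and an Alk5 inhibitor were given, of which T3 and the Alk5 inhibitor continued to day 35. The labels and methods do not define the PH stage, whose column stands between PP and SC-β, and PH is used below as the label only. All stages come from the single line H9, and whole cultures were sequenced with no sorting stated for RNA. Stage, time and medium changed together and cannot be told apart.

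Each value below is the authors' mean TPM (a level per transcript length, scaled to the same total in each stage) of 2 libraries. Replicate values were not analysed here, so no difference could be set against the spread between replicates, no test was possible. TPM values do not show the sequencing depth behind them. A difference is given as the log2 ratio of (TPM + 1), which understates differences of low genes, and 2-fold means a log2 ratio of at least 1. In cultures of mixed cells, more cells expressing a gene and more RNA per cell cannot be told apart.

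Promoter sequences were read from RefSeq (GRCh38.p14), whose table held a start-site window of 300 bases for 20 of the 36 genes. Those without an entry included HOXA5, HOXB2 to HOXB9, HOXB13, HOXC6, HOXC8, HOXC9, HOXC13 and HOXD9. Over the 26 distinct member windows the median ratio of observed to expected CpG dinucleotides was 0.855, against 0.577 over all 34943 windows, while median GC content was nearly equal at 58.0% and 58.7%. HOXA3 had the most windows and HOXA10 also more than 1, so windows are not separate genes and these genes weigh more in the shares below. Letter patterns were searched on both strands. TGATNNAT, the composite site bound by HOX and PBX together, was in 3 member windows (11.5%, against 7.42% of all windows). TTTATNG, bound by CDX and posterior HOX proteins, was in 6 (23.1%, against 9.75%). TATAAA, the letters of the TATA box, was in 5 at any position (19.2%, against 11.6%). From the start site it lay at -29 in HOXA3, -29 and -27 in HOXD13, and -150 or -222 in HOXA9 and HOXA10. In HOXA9 and in 1 HOXA10 window it overlapped a TTTATNG match on the same bases. AGGTCA, the core bound by retinoic acid receptors, was in 0 of 26 windows against 13.8% of all windows, which says only that these letters are not in those windows. A match is a description of the letters and not evidence of binding.

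The 250 bases before the start are shown for the 3 genes with a HOX-PBX composite match, in capitals, because they belong to a gene highest in PP (HOXB1), one high in PH and SC-β (HOXA2) and one under 1 TPM in every stage (HOXD11). The window shared by HOXC4 and HOXC5 is shown because RefSeq lists the same start for both and both were at least 2-fold higher in PP than in PGT. In GENCODE v44 HOXC4 starts at chr12:54016931 and HOXC5 at chr12:54033050. Capitals in the shared window mark TTTATNG. Each reads 5′ to 3′ on the strand of the gene, at chr17:48531012-48531261 (minus) for HOXB1, chr7:27102684-27102933 (minus) for HOXA2, chr2:176107030-176107279 (plus) for HOXD11 and chr12:54016638-54016887 (plus) for HOXC4 and HOXC5.
HOXB1: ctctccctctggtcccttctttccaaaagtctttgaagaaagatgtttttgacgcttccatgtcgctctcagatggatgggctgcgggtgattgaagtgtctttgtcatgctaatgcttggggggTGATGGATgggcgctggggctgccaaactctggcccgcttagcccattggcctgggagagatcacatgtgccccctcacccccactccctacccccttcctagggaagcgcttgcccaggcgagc
HOXA2: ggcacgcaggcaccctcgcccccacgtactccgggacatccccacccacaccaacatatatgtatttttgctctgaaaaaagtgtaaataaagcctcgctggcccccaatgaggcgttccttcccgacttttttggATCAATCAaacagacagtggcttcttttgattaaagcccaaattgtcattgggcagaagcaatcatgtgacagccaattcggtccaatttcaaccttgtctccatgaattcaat
HOXD11: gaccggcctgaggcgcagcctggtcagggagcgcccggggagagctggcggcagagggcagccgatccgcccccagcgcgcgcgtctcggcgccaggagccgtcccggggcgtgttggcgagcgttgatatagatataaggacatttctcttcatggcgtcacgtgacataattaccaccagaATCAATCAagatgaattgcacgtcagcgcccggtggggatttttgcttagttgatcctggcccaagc
HOXC4 and HOXC5: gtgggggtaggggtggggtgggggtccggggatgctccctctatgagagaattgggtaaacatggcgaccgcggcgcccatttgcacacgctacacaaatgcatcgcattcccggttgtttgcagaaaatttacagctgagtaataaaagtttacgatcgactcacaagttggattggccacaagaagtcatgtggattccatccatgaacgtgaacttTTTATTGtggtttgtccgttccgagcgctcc
The match starts at position -125 from the start site in HOXB1 on the strand of the gene, and at -114 in HOXA2 and -67 in HOXD11 on the opposite strand. The shared HOXC4 and HOXC5 window has its match at -31 on the strand of the genes.

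Stage markers were checked first. The pluripotency factor POU5F1 was at 1449 TPM in hESCs and 0.377 in SC-β, the endoderm factor SOX17 reached 96.1 TPM in DE, and the liver and gut factor HNF4A reached 33.7 in PGT. The pancreatic factor PDX1 was highest in PP but at only 3.17 TPM, and SC-β organoids had 298 TPM of INS (insulin) and 2793 of GCG (glucagon). INS was at 6.93 TPM in PP and 6.86 in PH, and GCG at 16.5 and 27.2. Of the 4 endocrine markers, 1 was at least 2-fold lower in PH than in PP and none was higher. In PH, PDX1 was at 0.0173 TPM and NKX6-1 at 0.256, while the other progenitor markers PTF1A and SOX9 were at 7.61 and 27.2 TPM, against 1.02 and 23.7 in PP. The gut tube marker HNF4A was at 3.90, 0.292 and 5.60 TPM and FOXA1 at 25.8, 1.96 and 14.7 in PP, PH and SC-β. All 10 neural markers were at least 2-fold higher in PH than in PP, against 5.14% of all gene names. In SC-β 8 of 10 were at least 2-fold lower than in PH, against 2.41% of all gene names. The neural sums were 155, 1382 and 247 TPM in PP, PH and SC-β. All 10 mesenchyme markers were at least 2-fold higher than in PP in both PH and SC-β, against 5.14% and 10.6% of all gene names. Their sums were 180, 1021 and 1957 TPM in PP, PH and SC-β. Of the 4 endothelial markers, PECAM1 and CDH5 were at 0.43 TPM or less in every stage, TEK was at 32.3 TPM in hESCs and 0.418 in PH, and KDR was at 20.2 in hESCs, 1.61 in PP, 4.72 in PH and 3.89 in SC-β. Over PP, PH and SC-β the neural sum had the order of the HOX sum described next, highest in PH and lower in PP than in SC-β. The order was not shared over all stages. In hESCs, DE and PGT, where HOX genes were nearly silent, the neural sum was 261, 135 and 150 TPM. The mesenchyme sum was instead highest in SC-β, and HNF4A and FOXA1 were lower in PH than in PP and SC-β. The part of these lists in the HOX levels was not tested.

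HOX genes were nearly silent through PGT. None of the 36 members reached 1 TPM in hESCs or DE, and their levels summed to 1.54 and 0.683 TPM. In hESCs the highest was HOXB1 at 0.661 TPM, a retinoic acid-responsive hindbrain gene at the 3′ end of its cluster. In DE the highest was HOXD1 at 0.313 TPM, and no HOXC member was listed above 0. With 1 TPM added, a gene must be at 1 TPM or more in the higher stage to reach 2-fold. No member could therefore be called 2-fold higher in DE than in hESCs, and the 12.9% of all gene names called there is no contrast to this. PGT had the first member above 1 TPM, HOXB2 at 4.24, which patterns the hindbrain and was listed at 0 in DE. It was the only member 2-fold higher in PGT than in DE (background 2.3%), and by its level the only one that could be. HOXA13 followed at 0.652 and HOXB3 at 0.603 TPM.

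In PP, 18 of 36 members were at 1 TPM or more and 7 at 10 or more, and the sum was 181 TPM against 6.66 in PGT. Likewise 18 were at least 2-fold higher in PP than in PGT, against 2.74% of all gene names, and 5 of the 18 were listed at 0 in PGT. None was lower, but only HOXB2, the only member at 1 TPM or more in PGT, could have been. The members at 1 TPM or more were those with low and middle numbers, without a steady order inside a cluster. In HOXA, HOXA2 (second pharyngeal arch identity) was at 16.6 TPM, HOXA3 (thymus and parathyroid development) at 11.1, HOXA4 at 1.64 and HOXA5 (lung development) at 12.8, while HOXA6 was at 0.283 and HOXA7 at 0.134. In HOXB, HOXB1 was at 12.3, HOXB2 at 20.1, HOXB3 at 31.5, HOXB4 (blood stem cell expansion) at 8.96 and HOXB5 (enteric neurons) at 3.43 TPM. HOXB6, HOXB7 and HOXB8, which pattern the trunk, were at 4.77, 4.15 and 4.39 TPM, and HOXB9 was at 0.171. Thus the last member at 1 TPM or more was number 5 in HOXA and number 8 in HOXB. HOXC4 was at 9.73 and HOXC5 at 4.94 TPM with HOXC6 at 0.181, and HOXD1 was at 1.52, HOXD3 at 9.55 and HOXD4 at 4.87 with HOXD8 at 0.0317.

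**Figure D1:**
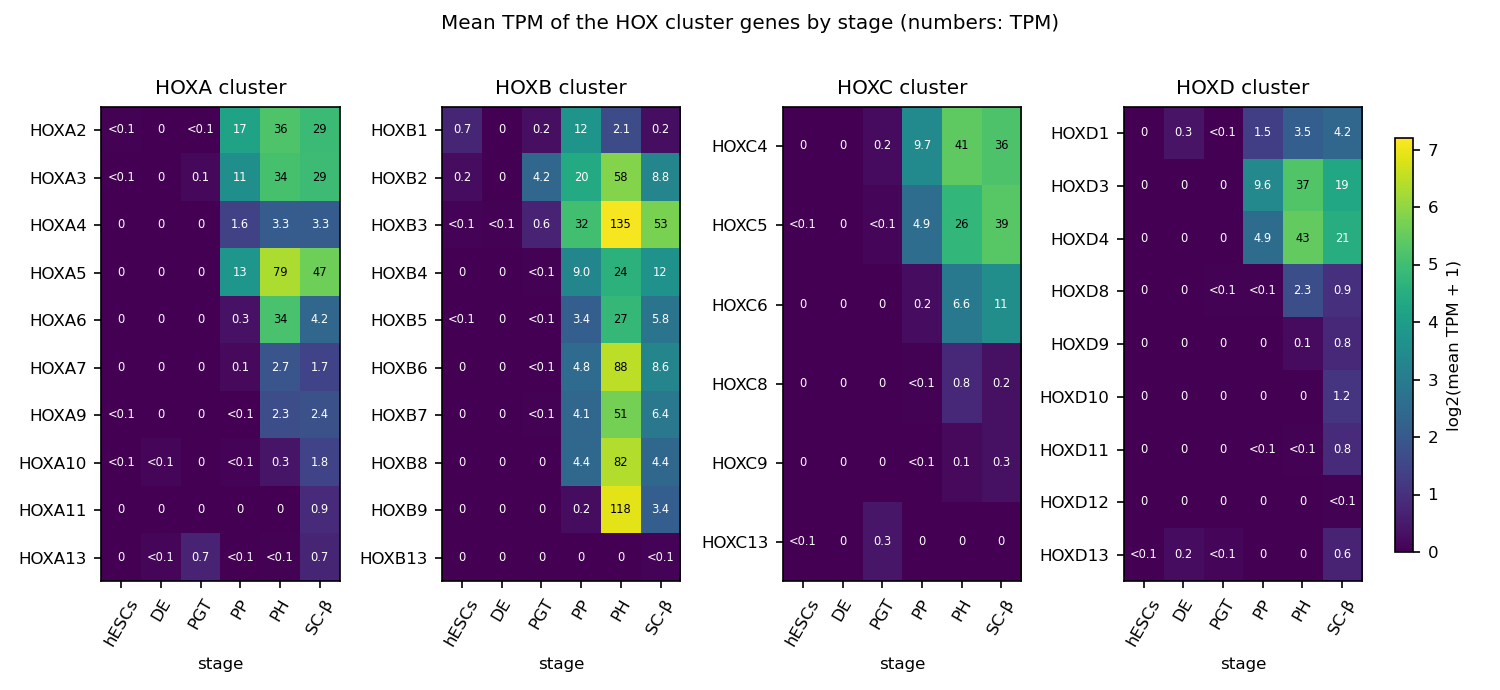
Level of 35 HOX genes (rows, in order of paralogue number within each cluster) at each stage (columns, in the order of the table), with colour for log2(mean TPM + 1) and the mean TPM printed in each cell. The 35 members drawn are all under 1 TPM in hESCs and DE, and HOXB3 has the highest level, 135 TPM in PH.

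PH had the highest HOX levels of the table. Its 36 members summed to 941 TPM, 24 were at 1 TPM or more and 16 at 10 or more. Against PP, 20 members were at least 2-fold higher and 2 lower, beside 5.14% of all gene names higher and 5.73% lower. The lower genes included the most 3′ member of HOXB, HOXB1, which went from 12.3 to 2.15 TPM (log2 ratio -2.08). The median log2 ratio of the members was 1.39, and that of all gene names 0.

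The higher genes included the whole middle of HOXB. HOXB9, a thoracic patterning gene, was at 118 TPM in PH against 0.171 in PP and 3.43 in SC-β, a log2 ratio of 6.67 over PP. HOXB8 was at 81.6 (3.94 over PP), HOXB6 at 88.4 (3.95), HOXB7 at 51.0 (3.34) and HOXB5 at 26.8 TPM (2.65). HOXB3 had the highest level of any member in any stage at 135 TPM, rank 373 of the 49085 gene names in PH, and HOXB9 ranked 451. HOXB2 was at 57.7 and HOXB4 at 23.8 TPM. HOXB thus showed no decline from number 2 to number 9 in PH, and HOXB13, a prostate and hindgut gene, was listed at 0.

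In the other clusters the members at 10 TPM or more in PH were numbered 6 or lower, though not every low-numbered gene was among them. HOXA5 was at 79.3 TPM and HOXA6 at 34.1, up from 0.283 in PP (log2 ratio 4.77), while HOXA7 was at 2.70 and HOXA9, a blood progenitor factor, at 2.26. HOXA2 was at 36.1, HOXA3 at 33.6 and HOXA4 at 3.30 TPM. HOXC4 was at 41.2, HOXC5 at 26.1 and HOXC6 at 6.59 TPM. HOXD4, a hindbrain gene, was at 42.9 and HOXD3 at 36.7, with HOXD1 at 3.47 and HOXD8 at 2.29.

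**Figure D2:**
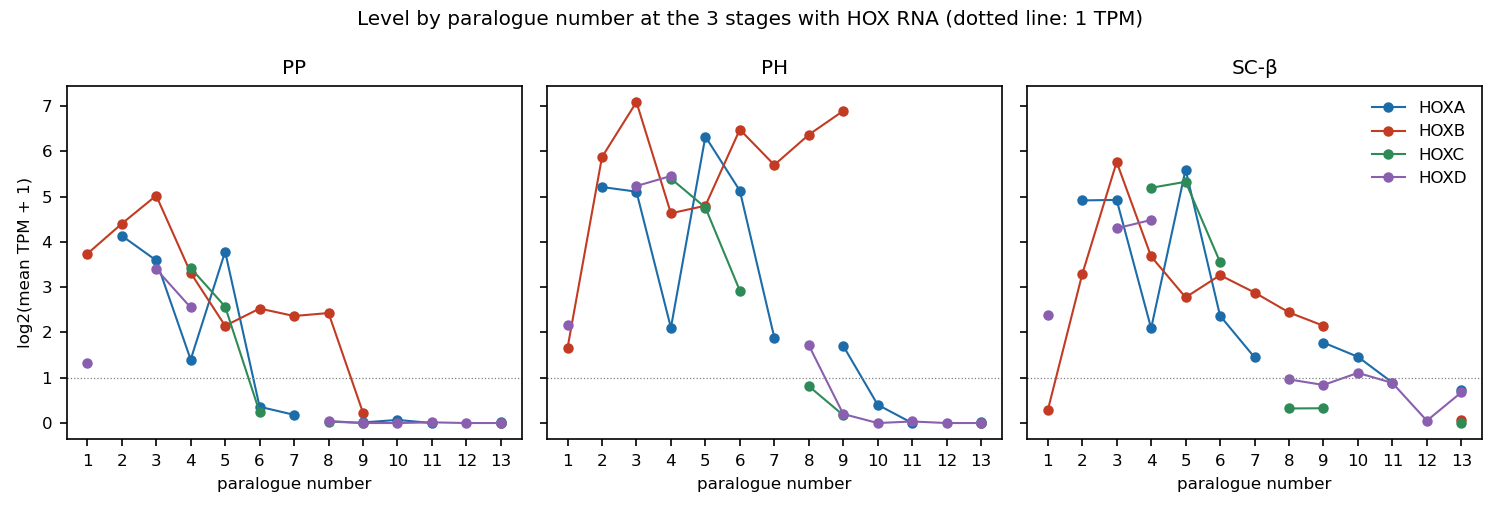
Level of 35 members, log2(mean TPM + 1), against paralogue number in PP, PH and SC-β, with 1 point a gene and lines joining genes of one cluster with consecutive numbers. In PP the members numbered 9 and above are all under 1 TPM, in PH HOXB stays high through HOXB9 at 118 TPM, and HOXA10 and HOXD10 pass 1 TPM only in SC-β.

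SC-β organoids kept HOX RNA at a lower sum, 366 TPM, with 24 members at 1 TPM or more and 10 at 10 or more. Against hESCs 24 were at least 2-fold higher (background 22.2%), and 15 of them were listed at 0 in hESCs. None could be called lower, since all members were under 1 TPM in hESCs. Against PP, 13 members were at least 2-fold higher and 3 lower, beside 10.6% and 0.939% of all gene names. The lower members included HOXB2 at 8.76 TPM (log2 ratio -1.12) and HOXB1 at 0.212 (-3.46). HOXB1 had thus gone from 12.3 TPM in PP to below its 0.661 in hESCs.

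HOXC held a larger part of HOX RNA in SC-β than in PP. HOXC6 was at 10.8 TPM in SC-β (log2 ratio 3.31 over PP), HOXC5 at 39.2 (2.76) and HOXC4 at 35.6 (1.77), and HOXC5 and HOXC6 were higher than in PH by less than 2-fold. In HOXA, HOXA5 was at 47.4, HOXA3 at 29.5, HOXA2 at 29.2, HOXA6 at 4.17 and HOXA4 at 3.26 TPM. The 5′ genes HOXA7, HOXA9 and HOXA10, the last known for uterine patterning, were at 1.73, 2.43 and 1.76 TPM. In HOXD, HOXD4 was at 21.4, HOXD3 at 18.7, HOXD1 at 4.23 and HOXD8 at 0.950 TPM, and HOXD10, a limb and lumbar cord gene, was at 1.16 TPM and listed at 0 in every other stage. In HOXB, HOXB3 led at 53.4 TPM, followed by HOXB4 at 11.8, HOXB2 at 8.76, HOXB6 at 8.62, HOXB7 at 6.38, HOXB5 at 5.85, HOXB8 at 4.44 and HOXB9 at 3.43.

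Between SC-β and PH the differences of at least 2-fold lay mostly in HOXB. In SC-β 9 members were lower and 2 higher, beside 2.41% and 14.7% of all gene names. Of the 9, 8 were HOXB genes and the other was HOXA6 (log2 ratio -2.76), and the 2 higher were HOXA10 (1.06) and HOXD10. Along HOXB the log2 ratios were -1.38 for HOXB1, -2.59 for HOXB2, -1.32 for HOXB3, -0.95 for HOXB4, -2.02 for HOXB5, -3.22 for HOXB6, -2.82 for HOXB7, -3.93 for HOXB8 and -4.75 for HOXB9. The median log2 ratio was -2.31 in HOXB, -0.01 in HOXA, 0.08 in HOXC and 0.23 in HOXD. This count depended on scaling, since structural RNAs such as 7SK held 50.9% of TPM in PH and 33.9% in SC-β. Rescaling each stage by its median ratio gave 0 higher and 14 lower, and leaving the structural RNAs out gave 4 higher and 14 lower. The HOXB median was then -2.76 and -2.78, and no called member changed direction. The median-ratio shift, the log2 difference common to all genes that this rescaling removes, was 0.50 for SC-β against PH, 0.52 for SC-β against hESCs, 0.48 for DE against hESCs and 0.27 for SC-β against PP. It was -0.22 for PH against PP, -0.15 for PGT against DE and -0.09 for PP against PGT.

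**Figure D3:**
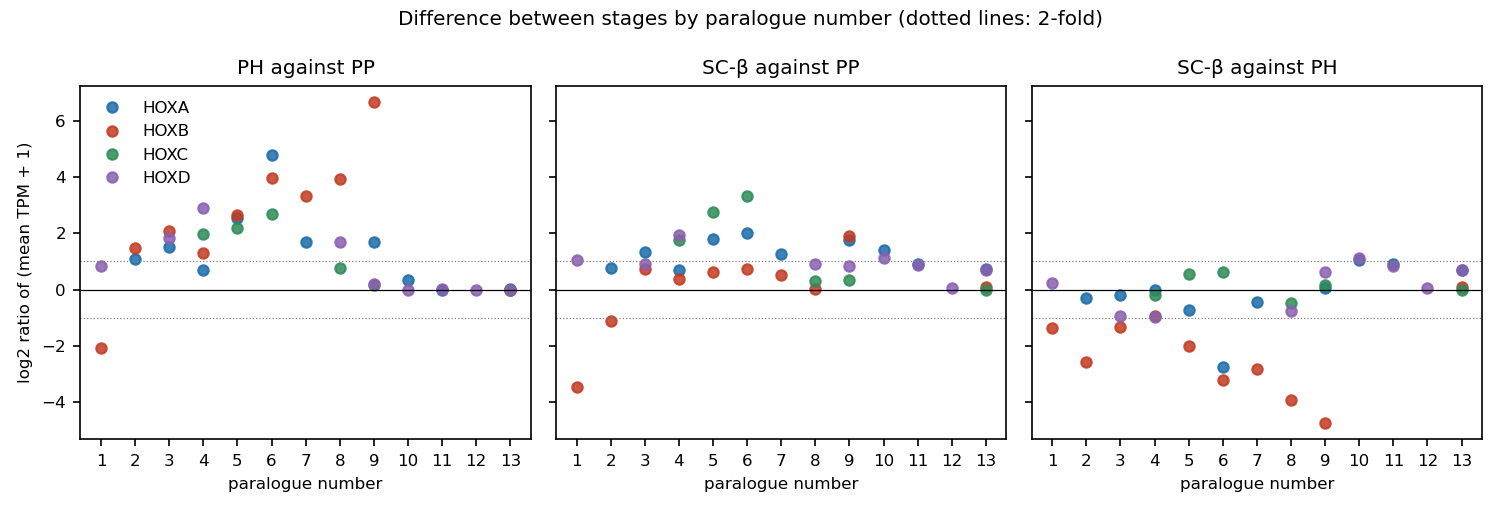
Log2 ratio of (mean TPM + 1) of 35 members against paralogue number for PH against PP, SC-β against PP and SC-β against PH, coloured by cluster, with dotted lines at 2-fold. HOXB9 lies at 6.67 in PH against PP and at -4.75 in SC-β against PH, while HOXB1 lies below -1 in both contrasts with PP.

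Shares of HOX RNA within a stage do not depend on the scaling of that stage. HOXB held 49.6% of the HOX TPM in PP, 62.1% in PH and 28.2% in SC-β. HOXA held 33.4%, 20.9% and 34.96%, HOXC 8.21%, 7.95% and 23.6%, and HOXD 8.81%, 9.08% and 13.3%. HOXB therefore led in PP and PH, and HOXA in SC-β.

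Paralogue numbers 1 to 3, the anterior class, made up 66.6% of HOX TPM in PP, 32.9% in PH and 41.3% in SC-β. Numbers 6 to 9 made up 7.80%, 41.2% and 12.1%, and numbers 4 and 5 25.6%, 25.9% and 45.0%. The posterior numbers 10 to 13 stayed at 0.0383% in PP and 0.0393% in PH and reached 1.63% in SC-β. HOXC10, HOXC11 and HOXC12, which were not analysed here, belong to this class. Its shares, the HOXC shares above and the weighted numbers below leave them out. The mean paralogue number weighted by TPM was 3.13 in PP, 5.14 in PH and 4.14 in SC-β. With weights of log2(TPM + 1), which count high genes less, it was 3.605, 4.85 and 4.91, so the order of PH and SC-β turned. Within HOXB it was 3.28, 5.74 and 4.06, and within HOXD 3.13, 3.57 and 3.90, so HOXD was highest in SC-β while HOXB was highest in PH. The same held in HOXC (4.36, 4.57 and 4.73) as in HOXD, and HOXA (2.61, 4.25 and 3.90) had the order of HOXB.

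**Figure D4:**
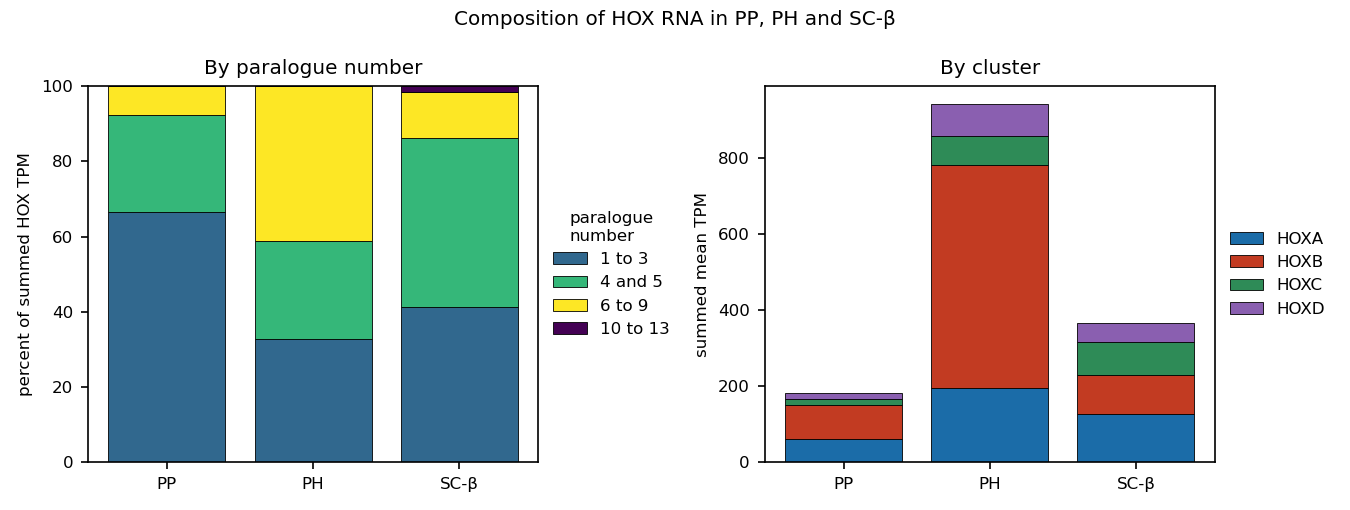
Left, percent of summed HOX TPM held by paralogue numbers 1 to 3, 4 and 5, 6 to 9 and 10 to 13 in PP, PH and SC-β. Right, summed mean TPM by cluster, where the HOXB part is 89.9 TPM in PP, 585 in PH and 103 in SC-β.

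As a description across genes, which are not independent and share one pair of libraries a stage, Spearman's rho of level with paralogue number over the 36 members was -0.89 in PP, -0.65 in PH and -0.70 in SC-β. Over the 10 HOXB members it was -0.87 in PP, 0.04 in PH and -0.49 in SC-β. Over the 11 HOXA members it was -0.93, -0.78 and -0.83.

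Pairs of the same number in HOXA and HOXB, close relatives in sequence, were not at equal levels. Of 9 such pairs in PH, the HOXB gene was at least 2-fold above its HOXA relative in 5 and the HOXA gene in 1, and in SC-β the counts were 2 and 3. The number 5 pair favoured HOXA in each stage, with HOXA5 above HOXB5 by log2 ratios, HOXB5 over HOXA5, of -1.64 in PP, -1.53 in PH and -2.82 in SC-β. The number 7 pair favoured HOXB, with HOXB7 over HOXA7 at 2.18, 3.81 and 1.43. The number 2 pair changed sides, with HOXB2 over HOXA2 at 0.26, 0.66 and -1.63. For number 9 the ratio of HOXB9 to HOXA9 was 0.21, 5.19 and 0.37.

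Of the 26 members at 1 TPM or more in some stage, 18 had their highest level in PH, 6 in SC-β and 2 in PP. The share of all gene names with their highest level in each stage was not computed. Where levels in PH and SC-β are close, the highest stage can depend on scaling. HOXB1 was at least 2-fold above every other stage in PP, where 0.206% of all gene names were. HOXA6, HOXB2, HOXB3 and HOXB5 to HOXB9, 8 members, were so in PH (background 1.51%), and HOXA10 and HOXD10 in SC-β (background 2.91%). Both HOXA10 and HOXD10 were low in SC-β, and after median-ratio rescaling neither was 2-fold above PH.

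The remaining 10 members stayed under 1 TPM in every stage. In SC-β, HOXA11 (forelimb and kidney) was at 0.858 TPM, HOXD11 at 0.847, HOXD9 at 0.791, HOXA13 (digits and hindgut) at 0.666, HOXD13 (digits) at 0.5996 and HOXC9 at 0.254. HOXB13 and HOXD12 were at 0.0532 and 0.0362 TPM there. HOXC8 was at 0.759 TPM in PH, and HOXC13, a hair follicle gene, was at 0.350 in PGT and listed at 0 in PP, PH and SC-β. These are the highest values in the table for each gene, and at such levels they are given as a description, with no order between stages drawn from them.

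Some members share sequence in the GENCODE v44 annotation, which may not be the one behind the TPM values. HOXC4 and HOXC5, which share a start in RefSeq, have no exon bases in common in GENCODE v44. The pairs HOXB3 with HOXB4, HOXB3 with HOXB6, HOXC4 with HOXC6, HOXC6 with HOXC9 and HOXD10 with HOXD11 have exon bases in common, so how reads were divided within these 5 pairs is uncertain. HOXD10 and HOXD11, both low, are among them.

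Antisense and other non-coding transcripts of the clusters, 32 names, gave 9 names at least 2-fold higher in PP than in PGT (background 2.74%). In PH against PP 5 were higher (background 5.14%). Many names are numbered parts of the same RNAs, and HOTAIRM1, HOTAIRM1_4 and HOTAIRM1_5 are all among the 9, so the counts are not of separate genes. HOTAIRM1, transcribed from the 3′ part of HOXA, was at 0.0667 TPM in PGT, 38.1 in PP, 34.1 in PH and 29.6 in SC-β. HOXB-AS3, within HOXB, was at 5.20, 64.6 and 14.4 TPM in PP, PH and SC-β, the same order as HOXB5 to HOXB9. HOXA-AS2 was at 32.8, 66.3 and 60.9 TPM and HOXA-AS3 at 1.25, 17.9 and 10.4. Whether the deposited values use the strand of reads is unsettled in the sources, so reads of a HOX gene and of an overlapping antisense transcript may not have been told apart.

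The TALE partners were detected at stages where HOX genes were not. MEIS1 went from 0.325 TPM in hESCs and 2.09 in DE to 39.9 in PGT, and on to 128, 161 and 229 TPM in PP, PH and SC-β. MEIS2 went from 0.111 and 10.2 TPM to 80.3 in PGT and 197 in SC-β. All 9 TALE genes were at 1 TPM or more from DE onward, and no HOX gene was in DE. Of the 9, 1 was at least 2-fold higher in PP than in PGT (background 2.74%). In PH against PP, 4 were higher and 1 lower (backgrounds 5.14% and 5.73%), and 2 were higher in SC-β than in PP (background 10.6%).

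Of the 10 upstream homeobox and retinoic acid response genes, 2 were at least 2-fold higher in PP than in PGT (background 2.74%). These were CDX1, an activator of the mid-cluster HOX genes, from 0.345 to 5.32 TPM, and CYP26B1, which breaks down retinoic acid, from 0.0465 to 4.84 TPM. CDX1 was at 0.0376 TPM in PH and at 2.31 in SC-β. CDX2 was at 2.09, 0.0231 and 2.16 TPM in PP, PH and SC-β. The retinoic acid receptor RARB was at 18.6 TPM in PP, 38.3 in PH and 24.2 in SC-β, and CYP26A1 was at 392 TPM in DE and 0.426 in PGT. The part of these genes in the HOX levels was not tested.

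**Figure D5:**
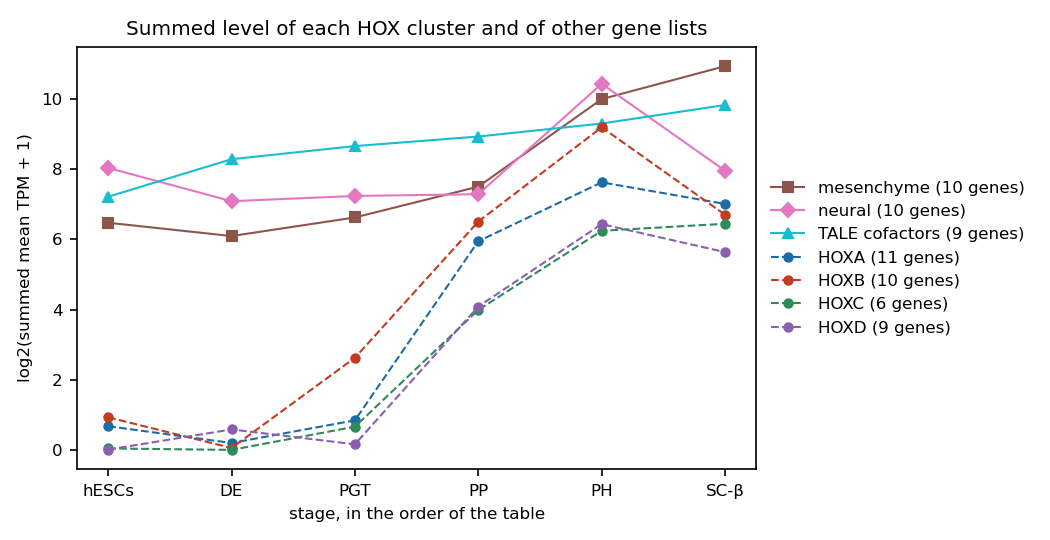
Log2(summed mean TPM + 1) of each HOX cluster (dashed lines) and of the mesenchyme, neural and TALE lists (solid lines) across the 6 stages, each point the sum over the genes of a list. The HOXB sum and the neural sum are both highest in PH, and the mesenchyme sum is highest in SC-β at 1957 TPM. The TALE sum is above that of each single HOX cluster in every stage, but in PH, at 630 TPM, it is below all HOX members together (941 TPM).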

How the data were processed

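RNA was profiled in 2 libraries each of H9 hESCs, DE, PGT, PP, PH and SC-β. Per the paper's methods and the submitters' processing notes, the authors aligned reads to hg38 with HISAT2 2.2.0, computed TPM with StringTie 2.1.6 and deposited the mean TPM of the 2 replicates per stage. The gene annotation they used is not given in the sources used here. The methods describe ribosomal RNA depletion, while the labels also name a stranded mRNA kit, so the library type is unsettled.

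From the deposited TPM, entries with the same name were summed and log2 ratios computed with a pseudocount of 1 TPM. Described genes were every member at 1 TPM or more in some stage, the other members by highest value, and genes of the listed groups. The members and lists were chosen with earlier results of these data known. Gene positions came from GENCODE v44 and promoter windows from RefSeq GRCh38.p14. Protein sequence comparison was not done here. The values of 1 member and of some listed genes are not reported here, but counts, sums and shares include them. Alternatives were 2 rescalings (by the median ratio over 13938 names at 1 TPM or more in every stage, and without the structural RNAs RN7SK, RN7SL, RMRP, RPPH1 and Metazoa_SRP), a pseudocount of 0.1, a limit of 0.5 TPM, log weights, only names at 1 TPM or more, and the highest entry of a repeated name. The calculations were tested on simulated data and run in Python 3.11.15 with pandas 2.3.3, numpy 2.4.6 and scipy 1.17.1, and figures drawn with matplotlib 3.10.9.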

Additional observations from a re-analysis of the deposited data

How the results depend on the processing

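Of 125 alternative values over 34 results, 96 kept direction and size and 29 moved. Some of the 96 could not have moved. Each member had 1 entry, so taking the highest entry of a repeated name changed nothing (15 values). Keeping only names at 1 TPM or more cannot change a 2-fold count (10 values), and rescaling a stage cannot change its TPM-weighted paralogue number. Of the 29, 19 moved on leaving out the structural RNAs, which raises every level. Leaving them out gave sums of 314 TPM in PP, 1916 in PH and 553 in SC-β, and 1 member at 1 TPM or more in hESCs and 2 in PGT. A limit of 0.5 TPM gave 2 and 3. A pseudocount of 0.1 gave 2 members 2-fold higher in DE than hESCs, 7 in PGT than DE, 21 in SC-β than PP and 7 in SC-β than PH. For SC-β against PH, median-ratio rescaling gave 0 higher and 14 lower, and leaving out structural RNAs 4 higher and 14 lower. Without members that share exons, an alternative chosen after seeing the data, 1 was higher. Weights of log2(TPM + 1) moved the weighted paralogue number in SC-β to 4.91, above the 4.85 they gave in PH. Under median-ratio rescaling, HOXD1 and HOXD10 no longer reached 2-fold in SC-β against PP, HOXA10 and HOXD10 in SC-β against PH, and HOXD10 in SC-β against hESCs.

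No paired analysis was possible because the table holds one mean per stage, and for the same reason no fit without a replicate was made. TPM keeps no depth, so levels under 1 TPM carry an unknown counting error.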

Other observations

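Genes beside the clusters did not share one pattern. SKAP2, beside HOXA, was at 1.04 TPM in PGT, 22.9 in PP, 22.4 in PH and 20.5 in SC-β, and EVX1, at the other end of HOXA, was at 5.90 in DE, 3.09 in PGT and listed at 0 in PP. MTX2, beside HOXD, stayed between 26.0 and 34.0 TPM in all 6 stages. Of 13 neighbour genes in the table, 1 was at least 2-fold higher in PP than in PGT and 2 were lower (backgrounds 2.74% and 3.25%). None was higher in PH than in PP (background 5.14%).

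Of 6 genes for Polycomb repressive complex 2 and the demethylases of its mark, none was at least 2-fold higher in PP than in PGT (background 2.74%). In the same comparison 1 was lower (background 3.25%). The lower gene was the demethylase KDM6A, at 120 TPM in PGT and 43.99 in PP. The other demethylase KDM6B was at 5.90 TPM in PP and 15.5 in PH, and the methyltransferase EZH2 was at 51.3, 64.1 and 52.7 TPM in PP, PH and SC-β. The hindbrain factor EGR2 was at 2.36, 0.481 and 11.3 TPM in PP, PH and SC-β.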
